A study of Mus musculus with 96 samples.

Results

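Calb1-expressing neurons of the mouse preoptic area were set against the preoptic neurons without Calb1. The members were chosen by their measured Calb1: 54 of 96 cells had Calb1 at 10 CPM or more (CPM is a gene's count per 1000000 counts of the cell) and are called Calb1 cells, and the remaining 42 are called other cells. All cells came from the hypothalamus of C57BL/6N mice aged 2 to 3 months, with no genetic change or drug named. Each neuron was recorded by whole-cell patch clamp in a fresh slice, then drawn into a glass pipette, and its RNA was amplified by Smart-seq2, a method that reads RNA along its length, and made into a Nextera XT library. The labels sort the cells by how their firing answered to temperature into 21 warm-sensitive, 5 cold-sensitive and 24 insensitive cells, here called firing cells together, 10 silent sensitive and 18 silent insensitive cells, and 18 cells of unknown class. The labels do not tie cells to animals, slices or recording days. Each group is therefore 1 sample without replicates, the values are descriptions without tests, and the intervals of shares (exact, 95%) treat cells as independent draws and cover counting error only.

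Calbindin, the protein of Calb1, belongs to the EF-hand family, whose members bind calcium ions in a helix-loop-helix fold. It buffers the calcium that enters a neuron with each action potential, and its presence is commonly used to tell kinds of neurons apart. The preoptic area helps to control body temperature, sleep and parental and sexual behaviour, and holds intermingled GABAergic and glutamatergic neurons, among them cells whose firing follows local temperature.

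The cells held 465167 to 3660726 counts each (median 1279600), of which 53.2% in all fell on Rn45s, a ribosomal RNA precursor. The share of Rn45s differed between the compared groups. It was 21.8% at the lowest, 48.3% at the median and 78.1% at the highest in Calb1 cells, and 29.3%, 63.3% and 91.6% in other cells. Genes with a count numbered 2479, 4046.5 and 7770 in Calb1 cells and 1615, 3160.5 and 7210 in other cells. Both ranges overlap over most of their length, with Calb1 cells shifted to less Rn45s and more genes. Their part in every result that follows was not tested, and differences between the groups are therefore given relative to the median gene.

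**Figure D1:**
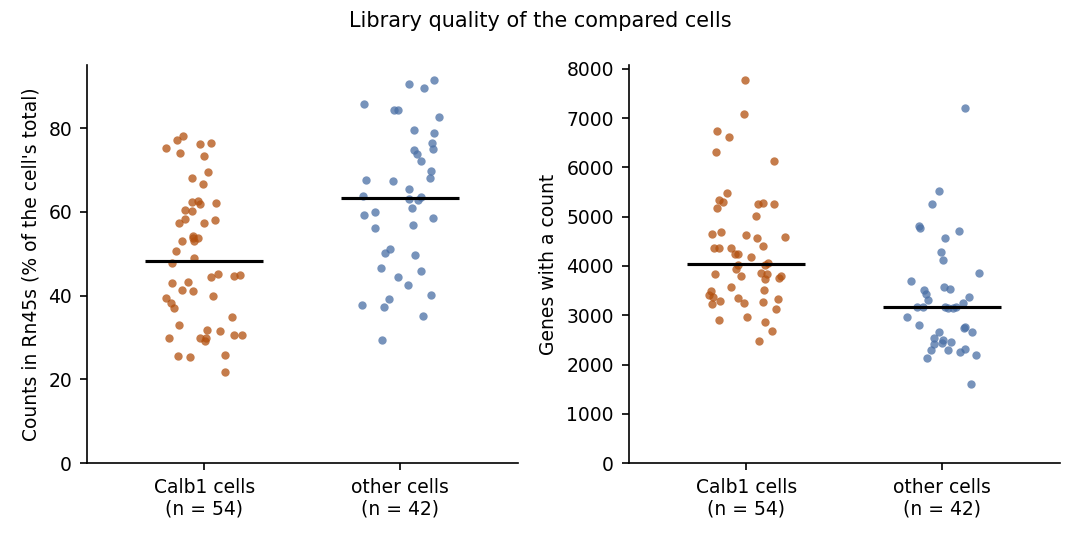
Share of a cell's counts in Rn45s (left, percent) and number of genes with a count (right) in each Calb1 cell and each other cell, with black bars at the medians. The median Calb1 cell had 48.3% of its counts in Rn45s and 4046.5 genes, the median other cell 63.3% and 3160.5 genes, and the points of both groups overlap.

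Calb1 (mm10 chromosome 4, 15881264 to 15908064, plus strand, protein-coding) separated the cells with a wide gap. In Calb1 cells it stood at 16.7 CPM at the lowest, 350 CPM at the median and 2110 CPM at the highest, which is 21, 468.5 and 4318 counts. In other cells it stood at 0, 0.94 and 4.12 CPM; 13 of them had no Calb1 count and the other 29 had 1 to 5 counts. The cells nearest the threshold were at 16.7 and 27.2 CPM inside it and at 4.12 and 3.49 CPM outside it. Of the 54 Calb1 cells, 44 had 100 CPM or more and 7 had 1000 CPM or more. Within the Calb1 cells the level went with the share of Rn45s (Spearman's rho -0.38, Pearson's r of log2 values -0.41, n = 54 cells) and hardly with the number of genes (rho -0.036). These are descriptions across cells that share the sequencing total as a denominator.

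Both groups carried the genes that define neurons. Snap25, a protein of the vesicle fusion machinery, was at 10 CPM or more in 54 of 54 Calb1 cells and 38 of 42 other cells, and Syt1, the calcium sensor of vesicle release, in 50 and 38. Summed over the 15 genes of a pan-neuronal list, the level was 617 CPM at the lowest, 5062 CPM at the median and 11955 CPM at the highest in Calb1 cells, and 449, 3317 and 10324 CPM in other cells. No cell of either group was without these genes.

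Calb1 cells were found in every temperature class, most often among insensitive cells and least often among silent ones. Of 24 insensitive cells 19 carried Calb1 (79.2%, interval 57.8 to 92.9%), of 21 warm-sensitive cells 10 (47.6%, 25.7 to 70.2%) and of 5 cold-sensitive cells 3 (60%, 14.7 to 94.7%). Among silent cells 3 of 10 sensitive (30%, 6.67 to 65.2%) and 8 of 18 insensitive cells (44.4%, 21.5 to 69.2%) did so, and 11 of 18 cells of unknown class (61.1%, 35.7 to 82.7%). The intervals of all 6 classes overlap. Taken the other way, insensitive cells made up 35.2% of the Calb1 cells and 11.9% of the other cells, and warm-sensitive cells 18.5% and 26.2%.

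Firing cells carried Calb1 more often than silent cells, and warm-sensitive cells less often than insensitive ones. Calb1 was present in 32 of 50 firing cells (64%, 49.2 to 77.1%) and in 11 of 28 silent cells (39.3%, 21.5 to 59.4%), a difference of 24.7 percentage points that lay between 23.3 and 27.0 with any 1 cell left out. Warm-sensitive cells lay 31.5 points below insensitive cells, between 29.2 and 35 points below with any 1 cell left out. With each cell thinned to 100000 counts outside Rn45s, which leaves out 1 warm-sensitive cell, the shares were 73.5% of firing and 57.1% of silent cells, and 60% of warm-sensitive and 83.3% of insensitive cells. At that depth 10 CPM is 1 count, and 66 of 95 cells passed as Calb1 cells. These shares are therefore not the same measure as the main ones. The order of the classes in both contrasts stayed the same with this changed threshold.

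The number of genes seen in a cell moved with the share of Calb1 cells. Among the 32 cells with the fewest genes 8 carried Calb1 (25%), among the middle 32 cells 22 (68.8%) and among the 32 with the most genes 24 (75%). In these bands of depth the numbers were 6 of 13, 13 of 21 and 13 of 16 for firing cells and 1 of 13, 6 of 7 and 4 of 8 for silent cells. Firing cells thus exceeded silent ones in the lowest and highest bands and not in the middle one. In the middle band 4 of 8 warm-sensitive and 9 of 12 insensitive cells carried Calb1, while the lowest band held 11 warm-sensitive cells and 1 insensitive cell and the highest 2 and 11, too uneven to compare. By the letter in the cell's title, whose meaning the labels do not give, Calb1 cells numbered 8 of 12 under A, B, D, E and H, 6 of 12 under C and 4 of 12 under F and G. The part of depth and of the letter in the class differences was not tested beyond these values.

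The level of Calb1 inside the Calb1 cells varied within every class. In warm-sensitive cells it was 169 CPM at the lowest, 435 CPM at the median and 892 CPM at the highest, and in insensitive cells 27.2, 344 and 2110 CPM. The 3 cold-sensitive cells had 53.0, 56.3 and 1186 CPM, and the 3 silent sensitive cells 16.7, 108 and 272 CPM. Silent insensitive cells stood at 109, 159 and 816 CPM and cells of unknown class at 50.4, 616 and 1185 CPM. All classes overlap, and the insensitive cells span both the low and the high end, so that warm-sensitive and insensitive cells differed in how many carried Calb1 while their Calb1 cells covered overlapping levels.

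**Figure D2:**
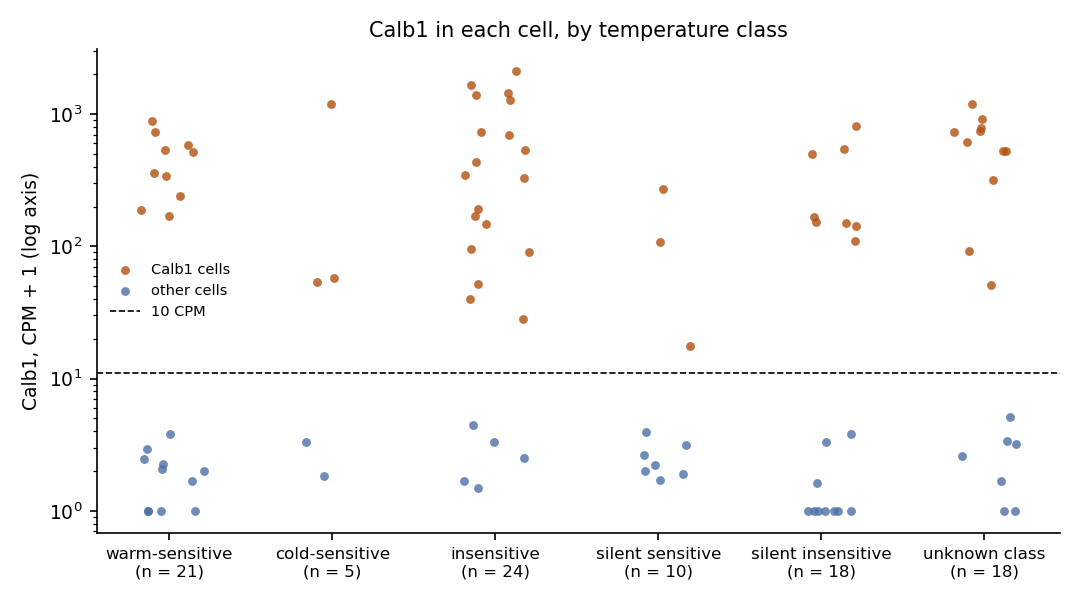
Calb1 in each of the 96 cells by temperature class, as CPM + 1 on a log axis, with the broken line at 10 CPM. No cell lies between 4.12 and 16.7 CPM, 19 of 24 insensitive cells and 10 of 21 warm-sensitive cells lie above the line, and the levels above it overlap between all classes.

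Before any adjustment, nearly all genes compared were at higher levels in Calb1 cells. A gene was compared where 25% or more of the cells of either group reached 10 CPM (3837 genes, Calb1 left out), and its difference is the mean of log2(CPM + 1) over Calb1 cells minus that over other cells, a scale that understates differences of low genes. The median gene differed by 1.10, with 3726 genes above 0 and 111 below, and its share of cells at 10 CPM or more was 17.2 percentage points higher in Calb1 cells. The size of this shift depends on the processing. It was 0.35 adjusted for the number of genes detected and 0.47 with DESeq2 size factors. In summed counts it was 0.57, and without a limit on low genes 0.21. It was larger than 1.10 with a pseudocount of 0.1 CPM and among silent cells, and above 0 in every setting tried. Relative to the median gene at 1.10, 230 genes (5.99%) were higher in Calb1 cells by 1 or more and 160 genes (4.17%) lower by 1 or more. Of the genes past 1 in either direction 59% were thus higher, but this split depends on the scaling: the higher share was 47.7% with TMM library sizes, 37.3% with DESeq2 size factors, 44.4% with the deposited normalized values, 49.3% with totals without Rn45s, 85.4% with a pseudocount of 10 CPM and 99.2% without a limit on low genes.

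The genes that stood highest in Calb1 cells included enzymes of calcium signalling, proteasome subunits and proteins of membrane traffic. Stk25, a serine/threonine kinase of the Golgi apparatus (mm10 chromosome 1, 93619751 to 93658659, minus strand), led them. It stood at 0, 156 and 957 CPM (lowest, median, highest) in Calb1 cells and 0, 1.08 and 501 CPM in other cells, and was at 10 CPM or more in 70.4% (56.4 to 82.0%) and 26.2% (13.9 to 42.0%). Relative to the median gene it was 2.29 higher, 2.03 among firing and 1.97 among silent cells. By class it was higher in 4 of 6, with -1.23 in silent sensitive and -0.0030 in cold-sensitive cells. Atp6v1b2, a subunit of the proton pump that acidifies synaptic vesicles and lysosomes, stood at 2.05, 303 and 2659 CPM against 0, 3.81 and 1221 CPM, in 50 of 54 and 19 of 42 cells, 2.28 above the median gene. In insensitive cells alone Atp6v1b2 stood at -0.040, while the other classes were above the median gene. The ranges of both genes overlap between the groups, with most Calb1 cells high and most other cells near 0.

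Calcium-dependent signalling enzymes were among the named genes. Pnck, a kinase switched on by calcium and calmodulin, stood at 0.577, 380 and 2711 CPM in Calb1 cells and 0.386, 5.28 and 783 CPM in other cells, and was detected in 79.6% and 40.5%. Ppp3ca, the catalytic subunit of calcineurin, a phosphatase switched on by the same pair, stood at 0, 141 and 868 CPM against 0, 1.79 and 869 CPM, in 74.1% and 31.0% of cells. Their relative differences were 2.05 and 1.96. Both were larger among firing cells, at 2.11 and 2.37, than among silent cells, at 0.19 and 0.56, a contrast that was not tested. Rgs2, which shortens signalling by G proteins, was in 68.5% and 28.6% of cells with a relative difference of 2.10.

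Other named genes serve protein turnover and transport. The proteasome subunits Psmb2 and Psmd12 were in 70.4% and 61.1% of Calb1 cells and 26.2% and 14.3% of other cells, and were 2.19 and 2.11 above the median gene. Txnl1, a thioredoxin-like protein that associates with the proteasome, was in 75.9% and 31.0%. Rab14, a small GTPase of endosomes and the Golgi, was in 87.0% and 52.4%, and Srp14, a part of the signal recognition particle, in 85.2% and 45.2%. Srp14 was 1.66 higher relative to the median gene but -0.46 among silent cells alone. Rit2, a Ras-like GTPase of neurons, was in 75.9% and 33.3%, Dner, a neuronal membrane protein that binds Notch, in 68.5% and 28.6%, and Meaf6, a part of histone acetyltransferase complexes, in 61.1% and 19%. Dcaf7 and Rwdd2a complete the 15 named genes. All 15 had a higher median CPM in Calb1 cells, with share differences of 34.7 to 47.4 points and relative differences of 1.66 to 2.29, and the groups overlapped in all 15. The sign was the same in all 6 temperature classes for 6 of them and in 5 or 6 classes for 12. Since the genes were chosen from the same cells by their difference over all classes, this agreement is partly built in. Meaf6, Psmd12 and Rwdd2a reached the share of cells needed for comparison only in Calb1 cells.

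The genes lowest in Calb1 cells included a myelin gene and a lipid desaturase, and differed less in raw terms. Mobp, a structural protein of central myelin (mm10 chromosome 9, 120149707 to 120181484, plus strand), stood at 0, 2.42 and 1018 CPM in Calb1 cells and 0, 23.8 and 1130 CPM in other cells, in 48.1% and 52.4% of cells. Its difference was -0.82, or -1.92 relative to the median gene. Scd2, a desaturase that makes monounsaturated fatty acids, stood at 0, 11.8 and 951 CPM against 0, 68.1 and 1174 CPM, in 50% and 59.5%, and was 2.11 lower relative to the median gene. The ranges of Mobp and Scd2 overlap almost entirely, and the groups differ in how the cells are spread over them.

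Ehmt2, a histone lysine methyltransferase, was in 18.5% of Calb1 cells and 28.6% of other cells and had the largest relative difference of this kind, with -2.13. Sdc2, a heparan sulfate proteoglycan of the cell surface, was in 18.5% and 28.6%, and Bicd1, an adaptor of the dynein motor, in 33.3% and 40.5%. Nfs1, which supplies sulfur for iron-sulfur clusters, Kifc2, a kinesin, Med21, a subunit of Mediator, Wipf2, Lnp, Shisa5, Dbndd2, Nacc2, Cdk2ap2 and Rgag4 complete the 15. Their relative differences ran from -2.13 to -1.57, the unadjusted ones from -1.03 to -0.47 and the share differences from -15.6 to -3.7 points. The median CPM was slightly higher in Calb1 cells for 2 of the 15, Shisa5 and Med21. It was 0 in both groups for Ehmt2, Nacc2, Nfs1, Sdc2, Rgag4 and Wipf2. The groups overlapped in all 15, and the detection intervals of the groups overlap for each gene. The sign was the same in all 6 classes for 10 and in 5 or 6 classes for 15. These genes were chosen from the same cells by their difference over all classes. Agreement between the classes is thus partly built in and is not independent support. Ehmt2, Dbndd2, Nacc2, Nfs1, Sdc2, Rgag4, Wipf2 and Lnp reached the share of cells needed for comparison only in other cells. The filter thus let them in through the group where they were more frequent.

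**Figure D3:**
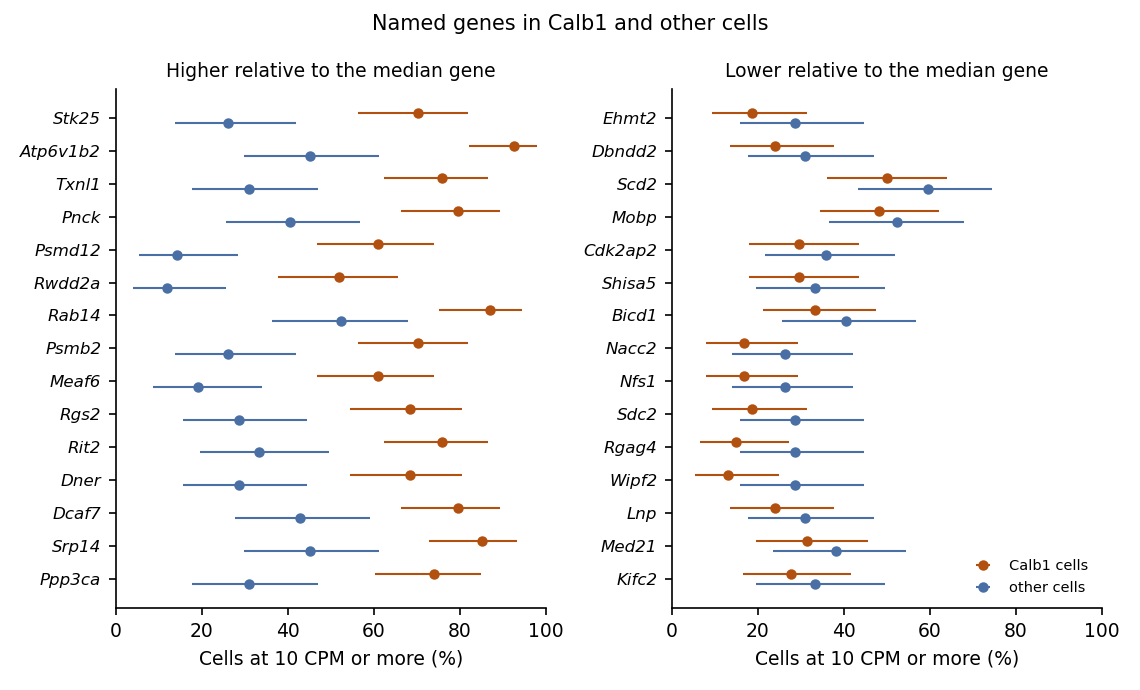
Percent of Calb1 cells and of other cells at 10 CPM or more for the 15 genes named as higher (left) and the 15 named as lower (right), with exact 95% intervals. On the left the Calb1 cells lie 34.7 to 47.4 points to the right of the other cells, while on the right the share differences are -15.6 to -3.7 points and the intervals overlap.

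The relatives of calbindin were spread around the median gene. Of 26 further EF-hand genes 16 were frequent enough to compare, with a median relative difference of -0.033 against 0 for all genes, 2 at 1 or more and none at -1 or less, beside 5.99% and 4.17% of all genes. Ncald, a neuronal calcium sensor, was in 41 of 54 Calb1 cells and 17 of 42 other cells, and stood 1.09 above the median gene, but -0.41 among silent cells and -0.079 in summed counts. Sdf4, an EF-hand protein of the Golgi lumen, was in 39 and 17 cells and 1.13 above, but -0.34 after thinning. Calb2, the close relative calretinin, was in 29 of 54 cells (53.7%, 39.6 to 67.4%) and 20 of 42 (47.6%, 32.0 to 63.6%), a relative difference of -0.11. Pvalb, which encodes parvalbumin, was in 7 and 4 cells. Calb1 cells were thus mixed for calretinin, and few carried parvalbumin.

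Genes of calcium-dependent kinases and phosphatases had a higher median than most lists. Of 17 genes 15 were compared, with a median relative difference of 0.25, and 4 of the 15 were at 1 or more and none at -1 or less, beside 5.99% and 4.17% of all genes. This median was above 0 in every setting tried, each cell left out included, with the lowest at 0.14. Besides Pnck and Ppp3ca the genes at 1 or more were Camk1 and Ppp3r1. Camk1, a kinase of the same family as Pnck, was at 1.28 (57.4% and 21.4% of cells). Ppp3r1, the regulatory subunit of calcineurin and itself an EF-hand protein, was at 1.13 (64.8% and 33.3%). Camk1 reached the share of cells needed for comparison only in Calb1 cells. The subunits of calmodulin kinase II, which postsynaptic sites use, lay within 1 of the median gene, with Camk2g at 0.75, Camk2d at 0.45, Camk2a at 0.12 and Camk2b at 0.04. The list was made with earlier results of these data known, among them the lower Pnck of silent cells, so its count is not independent support.

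Genes that move calcium out of the cytosol or let it in did not share a direction. Of 19 pump, exchanger and store genes 12 were compared, with a median of -0.25, none at 1 or more and Slc24a2, a potassium-dependent sodium-calcium exchanger, at -1.31. Slc8a1, the main sodium-calcium exchanger, stood at 0.98. Of 17 voltage-gated calcium channel genes 6 were compared, with a median of 0.033. Cacna1b, the N-type channel of presynaptic terminals, was at -1.52, in 18.5% of Calb1 cells and 26.2% of other cells. It had the same sign in all 6 classes, which is partly built in, since the classes together make up this difference. Cacna1b reached the share of cells needed for comparison only in other cells, the group where it was more frequent.

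Among the remaining channel genes, 7 of 10 sodium channel genes were compared, with a median of -0.45, none at 1 or more and 2 at -1 or less: Scn8a at -1.09 and Scn1a at -1.02, the latter 0.68 among silent cells. The median of this list moved between -0.58 and -0.29 with any 1 cell left out. Of 22 voltage-gated potassium channel genes 7 were compared, with a median of -0.18, and of 13 leak, two-pore potassium and HCN channel genes 5, with a median of -0.30, none beyond 1 in either direction in both lists. None of 15 TRP channel genes, several of which sense heat or cold, was frequent enough to compare. Trpc5 was in 8 of 54 Calb1 cells and 1 of 42 other cells, Trpc1 in 2 and 7, and Trpm2, a candidate warm sensor of the preoptic area, in 5 and 3.

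The glutamate transporter gene was more frequent in Calb1 cells, and genes of GABA synthesis were about as frequent in both groups. Slc17a6, the vesicular glutamate transporter of hypothalamic neurons (mm10 chromosome 7, 51622006 to 51671119, plus strand), stood at 0, 4.11 and 1043 CPM in Calb1 cells and 0, 0.695 and 462 CPM in other cells, in 26 of 54 (48.1%, 34.3 to 62.2%) and 9 of 42 (21.4%, 10.3 to 36.8%). Its difference was 1.92, or 0.82 relative to the median gene, between 0.68 and 0.99 with any 1 cell left out. Gad1 (mm10 chromosome 2, 70553072 to 70602014, plus strand) and Gad2 make GABA. They were found in similar shares, Gad1 in 29 of 54 and 24 of 42 and Gad2 in 30 of 54 and 23 of 42. Against a median gene that was more frequent in Calb1 cells they thus stood lower, at -1.19 and -1.20. They are among the 3 of 11 GABAergic genes that could be compared, which had a median of -1.19 with 2 at -1 or less, beside 4.17% of all genes. Of 6 glutamatergic genes 2 were compared, Slc17a6 among them, with a median of -0.0018 and none beyond 1 in either direction.

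The GABAergic difference did not have the same sign in firing and silent cells. In firing cells Gad1 was in 15 of 32 Calb1 cells (46.9%, 29.1 to 65.3%) and 13 of 18 other cells (72.2%, 46.5 to 90.3%), a relative difference of -2.51. In silent cells it was in 7 of 11 (63.6%, 30.8 to 89.1%) and 8 of 17 (47.1%, 23 to 72.2%), a relative difference of 0.57. The list's median among silent cells was 0.59. With Calb1 cells taken at 1 count or more the list's median was 0.19, and Gad1 stood at 0.013 and Gad2 at 0.39. Slc17a6 was in 18 of 32 firing Calb1 cells (56.2%) and 4 of 18 firing other cells (22.2%), and in 1 of 11 and 3 of 17 silent cells, too few to compare. The higher share of Slc17a6 in Calb1 cells was thus seen in firing cells. Cells of unknown class belong to neither set and were not looked at apart, so the difference is not shown to be particular to firing cells. Whether firing and silent cells differ in the share of Slc17a6 was not tested.

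Each cell was also sorted by the transmitter genes it had at 10 CPM or more. Any of Gad1, Gad2 and Slc32a1 was present in 36 of 54 Calb1 cells (66.7%, 52.5 to 78.9%) and 31 of 42 other cells (73.8%, 58 to 86.1%). Cells with Gad1, Gad2 or Slc32a1 and no Slc17a6 were 22 of 54 Calb1 cells (40.7%, 27.6 to 55.0%) and 26 of 42 other cells (61.9%, 45.6 to 76.4%). Cells with Slc17a6 alone were 12 (22.2%) and 4 (9.52%), cells with both kinds 14 (25.9%) and 5 (11.9%), and cells with neither 6 (11.1%) and 7 (16.7%). Taken the other way, Calb1 was in 45.8% of the 48 cells with GABA genes only (31.4 to 60.8%), 75% of the 16 with Slc17a6 only (47.6 to 92.7%), 73.7% of the 19 with both (48.8 to 90.9%) and 46.2% of the 13 with neither (19.2 to 74.9%). The median number of genes was 3570 in cells with GABA genes only, 3649.5 with Slc17a6 only, 4356 with both and 2958 with neither, so cells with GABA genes only and with Slc17a6 only were close in depth. The intervals overlap.

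**Figure D4:**
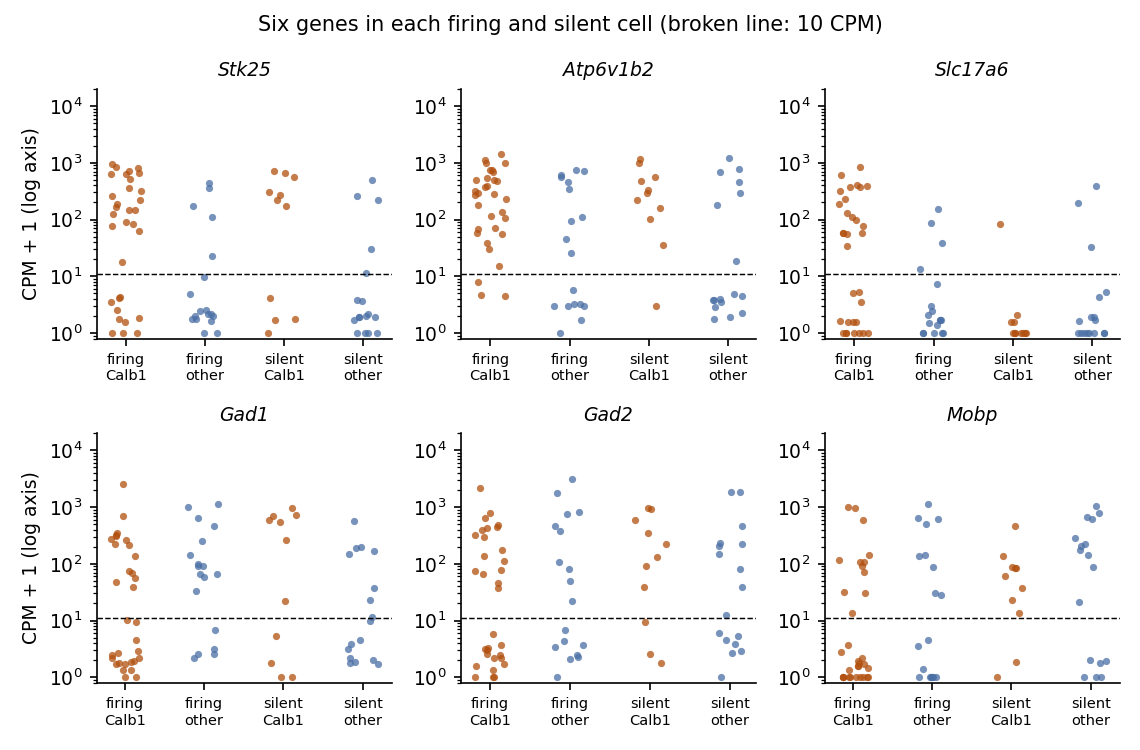
CPM + 1 on a log axis of Stk25, Atp6v1b2, Slc17a6, Gad1, Gad2 and Mobp in each firing and silent cell, split by Calb1, with the broken line at 10 CPM. Stk25 lies above the line in 22 of 32 firing and 7 of 11 silent Calb1 cells against 5 of 18 and 5 of 17 other cells, and Gad1 in 15 of 32 firing Calb1 cells against 13 of 18 firing other cells.

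Receptor genes for the same transmitters were spread on both sides of the median gene. Of 15 GABA receptor genes 9 were compared, with a median of 0.26, 1 at 1 or more and 2 at -1 or less. Gabrg1, a gamma subunit of the ionotropic receptor, stood at 0, 1.66 and 647 CPM in Calb1 cells and 0, 0 and 347 CPM in other cells, in 24 of 54 (44.4%, 30.9 to 58.6%) and 3 of 42 (7.14%, 1.5 to 19.5%). It was 1.5 above the median gene with the same sign in all 6 classes. The classes together make up the difference over all cells, so this agreement is partly built in. Gabrg1 reached the share of cells needed for comparison only in Calb1 cells, the group where it was more frequent. Gabbr1, a subunit of the metabotropic receptor, was at -1.30 (0.13 with Calb1 taken at 1 count or more). Of 15 ionotropic glutamate receptor genes 7 were compared, with a median of -0.43, none at 1 or more and Gria2, which limits the calcium permeability of AMPA receptors, at -1.02.

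Neuropeptide genes were found in both groups, mostly in a minority of cells. Of 23 genes only 3 were frequent enough to compare, with a median of -0.13 and none beyond 1 in either direction: Avp, which encodes vasopressin, in 25 of 54 and 16 of 42 cells, Tac1, which encodes substance P, in 19 and 7, and Adcyap1, which encodes the peptide PACAP and is used as a marker of warm-activated preoptic neurons, in 16 and 8. Penk, the enkephalin precursor, was in 13 and 4, Trh in 13 and 6, Sst in 13 and 10, and Bdnf in 10 and 5. Gal, which encodes galanin, and Npy were each in 4 of 54 Calb1 cells and 0 of 42 other cells, where 0 allows a share of up to 7.14%. Tac2 was in 0 of 54 Calb1 cells, where 0 allows up to 5.56%, and 3 of 42 other cells. Granin and peptide processing genes, which most cells carried, had a median of -0.023 over 10 of 11 genes, with none beyond 1.

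Receptor and transcription factor genes were rarer still. Of 19 hormone and peptide receptor genes 1 could be compared, Prlr, the prolactin receptor, which was in 19 of 54 Calb1 cells (35.2%, 22.7 to 49.4%) and 3 of 42 other cells (7.14%, 1.5 to 19.5%). It stood 0.45 above the median gene, and so the list's median is 0.45, but -0.80 among silent cells. Igf1r was in 12 of 54 and 0 of 42 cells, Pgr, the progesterone receptor, in 7 and 3 and Esr1 in 3 and 1. Of 28 transcription factor genes 2 could be compared, with a median of 0.00038: Tshz2 in 19 of 54 and 4 of 42 cells, at 0.45, and Zfhx3 in 22 and 11, at -0.45. Isl1 was in 12 and 5. Prlr, Igf1r and Tshz2 were thus seen several times as often in Calb1 cells. Relative to the median gene, however, neither Prlr nor Tshz2 reached 1, and Igf1r was not frequent enough to compare. Prlr and Tshz2 reached the share of cells needed for comparison only in Calb1 cells.

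Lists of general neuronal and cell function had few members more than 1 from the median gene. Synaptic vesicle release genes were at 0.065 (18 of 22 compared, none beyond 1) and pan-neuronal genes at 0.11 (15 of 15, with Gap43 at 1.10 and Tubb3 at -1.15). Immediate early genes, which activity switches on, were at -0.43 (10 of 13, 7 of them below the median gene and none beyond 1), and Fos was in 50 of 54 and 35 of 42 cells. Heat shock and stress genes were at -0.20 (14 of 16), with Hspd1, a mitochondrial chaperonin, at 1.09, or -0.78 among silent cells. Nuclear genes of oxidative phosphorylation were at 0.17 (20 of 20), with 2 at 1 or more, Ndufb9 of complex I at 1.20 and Uqcrc1 of complex III at 1.04, the latter -0.40 among silent cells.

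Markers of glia were also found in the pipette samples of both groups. Of 8 oligodendrocyte markers 4 could be compared, with a median of -1.36, none at 1 or more and 3 at -1 or less, beside 4.17% of all genes, among them Mobp and Cnp, the latter at -1.47. Among silent cells the list's median was 0.39. Summed over the 8 genes the level was 2.59, 827 and 14389 CPM in Calb1 cells and 0.99, 1001 and 20685 CPM in other cells, ranges that overlap. Of 9 microglia markers 7 were compared, with a median of -0.78 and 2 at -1 or less, P2ry12 at -1.39 and C1qa at -1.53, the latter 0.99 among silent cells, and their sum was 2.00, 432 and 24980 CPM against 3.49, 740 and 14841 CPM. Of 8 astrocyte markers 4 were compared, with a median of -0.35 that moved between -0.51 and -0.18 with any 1 cell left out and was -0.013 when adjusted for genes detected, and Slc1a2 at -1.26; their sum was 3.05, 893 and 3985 CPM against 1.27, 802 and 5062 CPM.

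Endothelial markers were at or near 0: Cldn5 and Ly6c1 had no count in any cell, none of the 5 genes could be compared, and the sum was at most 18.3 CPM in Calb1 cells and 21 CPM in other cells. None of 4 ependymal markers could be compared either, and their sum had a median of 0 in both groups and reached 347 and 211 CPM. Glial genes were thus present at overlapping summed levels in both groups, and their part in the lower Mobp, Scd2 and other genes of Calb1 cells was not tested.

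**Figure D5:**
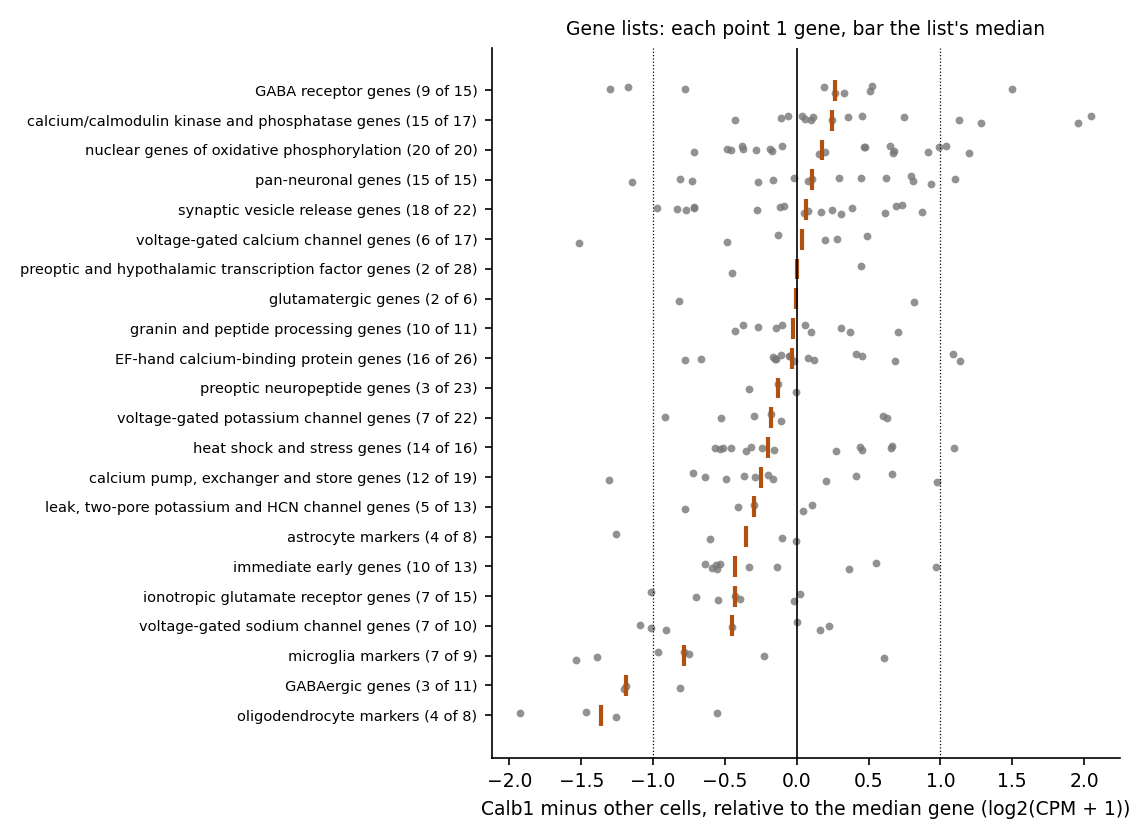
Difference between Calb1 and other cells relative to the median gene, on the log2(CPM + 1) scale, for every gene compared in each list (points) with the list's median (bars); dotted lines mark -1 and 1, and numbers in brackets give the genes compared of those listed. Calcium/calmodulin kinase and phosphatase genes hold 4 points beyond 1, while the GABAergic, oligodendrocyte and microglia lists have medians of -1.19, -1.36 and -0.78.

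Within the Calb1 cells, 10 warm-sensitive cells were compared with 19 insensitive ones, to see how cells that share Calb1 differ with the response to temperature. Here too the libraries differed: Rn45s took a median of 67.6% of counts in warm-sensitive and 44.6% in insensitive Calb1 cells, and the median number of genes was 3294 and 4023. Of 4682 genes compared, the median gene was 1.26 lower in warm-sensitive Calb1 cells, with 715 genes above 0 and 3967 below. Adjusted for the number of genes detected it differed by -0.53, and over all settings tried by -1.82 to -0.36. Relative to the median gene, 930 genes (19.9%) were higher by 1 or more and 767 (16.4%) lower. Differences of this size were thus common between these 10 and 19 cells.

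The 6 genes named as lower in warm-sensitive Calb1 cells take part in RNA splicing, protein quality control and mitochondria. Rbfox1, a neuronal splicing factor, stood at 0, 1.08 and 5.57 CPM in them and at 0.535, 155 and 742 CPM in insensitive Calb1 cells, in 0 of 10 cells, which allows a share of up to 30%, and 15 of 19. Uqcrc2, a subunit of respiratory complex III, stood at 0, 1.07 and 29.3 CPM against 2.39, 389 and 1398 CPM, in 1 of 10 and 15 of 19. Srsf2, a splicing factor needed in most cells, was in 2 of 10 and 19 of 19, Usp9x, a deubiquitinase, in 2 and 17, Stub1, a ubiquitin ligase of chaperones, in 1 and 15, and Timm8b, a chaperone of the mitochondrial intermembrane space, in 3 and 18. Most insensitive Calb1 cells were high for these 6 genes and most warm-sensitive ones near 0, yet the ranges overlap for all 6. Relative differences ran from -4.05 for Uqcrc2 to -3.22 for Timm8b. Rbfox1, Uqcrc2, Srsf2, Usp9x and Stub1 reached the share of cells needed for comparison only in insensitive Calb1 cells. The filter thus let these genes in through the group where they were more frequent. The oxidative phosphorylation list as a whole had a median of 0.012 over its 20 genes, with 2 at 1 or more and 5 at -1 or less, beside 19.9% and 16.4% of all genes.

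The 6 genes named as higher in warm-sensitive Calb1 cells were each carried by 5 to 7 of the 10 cells. Lztr1, an adaptor of a ubiquitin ligase, stood at 0, 90.4 and 1045 CPM against 0, 0 and 265 CPM, in 6 of 10 and 3 of 19 cells, with a relative difference of 4.6. Dalrd3 was in 5 and 4 cells, Scd1, a fatty acid desaturase, in 5 and 2, Kat8, a histone acetyltransferase, in 5 and 1, and Helz in 5 and 3. Ccl4, a chemokine that microglia make, was in 7 of 10 and 9 of 19 cells, with a relative difference of 3.42. The groups overlap for all 6. Lztr1, Dalrd3, Scd1, Kat8 and Helz reached the share of cells needed for comparison only in warm-sensitive Calb1 cells. The filter thus let these genes in through the group where they were more frequent. Ccl4 stood beside a microglia list whose median was 1.71 over 8 genes, 5 of them at 1 or more and 1 at -1 or less, beside 19.9% and 16.4% of all genes. That list's sum was 17.5, 884 and 6109 CPM in warm-sensitive and 4.53, 425 and 16794 CPM in insensitive Calb1 cells, which overlap, and its part in Ccl4 was not tested.

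Among transmitter genes, Gad1 was more frequent in warm-sensitive Calb1 cells, while Gad2 and Slc17a6 were found in similar shares. Gad1 was in 6 of 10 warm-sensitive Calb1 cells and 7 of 19 insensitive ones, with levels of 0.928, 61.6 and 2598 CPM against 0, 1.73 and 326 CPM and a relative difference of 3.48. Gad2 was in 5 of 10 and 10 of 19 and stood at 1.45, and Slc17a6 in 5 of 10 and 11 of 19 and stood at 0.27. The GABAergic list had a median of 1.45 with 2 of 3 genes at 1 or more, beside 19.9% of all genes. These values are relative to a median gene that was 1.26 lower in warm-sensitive Calb1 cells. Gad2 thus stood above the median gene with similar shares in both groups. Calcium/calmodulin kinase and phosphatase genes, which were higher in Calb1 cells as a whole, had a median of -0.66 in warm-sensitive Calb1 cells, with 3 of 16 at 1 or more and 8 at -1 or less, beside 19.9% and 16.4% of all genes. Oligodendrocyte markers had a median of 0.86 over 4 genes and astrocyte markers of 0.87 over 4 genes, each relative to a median gene that was 1.26 lower in warm-sensitive cells. Their summed levels ran the other way, with medians of 244 CPM in warm-sensitive and 457 CPM in insensitive Calb1 cells for oligodendrocyte markers and of 614 and 1355 CPM for astrocyte markers.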

How the data were processed

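The data are counts per gene in 96 single preoptic neurons, grouped by the temperature class in the labels and by Calb1. Raw counts, whole numbers per gene and cell, were deposited by the authors beside a second table of normalized signal. The signal values deposited there equal CPM divided by a constant for each cell. The submitters' processing notes name FastQC, STAR, edgeR and the build mm10; the counting tool, annotation and strand setting were not given in the sources used here; overlapping genes cannot be told apart. Of the 24054 genes listed, 7772 had no count in the 96 cells, and no pair of cells was identical. No column was left unused.

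CPM is a gene's count divided by the cell's total, Rn45s included, times 1000000. A gene was compared where 25% or more of a group's cells, and 3 or more, reached 10 CPM in either group. Genes below this share in the other group were let in through the group where they were more frequent. Differences of mean log2(CPM + 1) were set against the median gene in 3 versions: plain, within title letters, and adjusted for the number of genes in the cell. Named genes are ranked by the smallest of the 3 in size, with equal signs, a share difference of the same sign relative to the median gene, and at least 2/3 of the plain difference kept without any 1 cell; predicted, ribosomal protein and mitochondrially encoded genes were left out. The first 15 per direction were named for Calb1 cells and the first 6 for warm-sensitive Calb1 cells; every gene on the 26 lists could also be named. Members and lists were chosen with earlier results of these data known. The results of some listed genes are not reported here. With 1 sample per group no test was made. Shares have exact Clopper-Pearson 95% intervals; the limit given beside a count of 0 cells is 3 cells of the total. Reads are not independent molecules.

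Alternatives were totals without Rn45s, pseudocounts of 0.1 and 10 CPM, TMM library sizes, DESeq2 size factors, the deposited normalized signal, no limit on low genes, Calb1 at 1 count or 50 CPM, differences within title letters or classes or adjusted for genes, leaving out cells with over 75% Rn45s or of unknown class, thinning to 100000 counts outside Rn45s, summed counts and leaving out each cell. The measures were tested on simulated data. Gene coordinates were taken from GENCODE M21 (mm10). Python 3.11.15 was used with matplotlib 3.10.9, scipy 1.17.1, pandas 2.3.3 and numpy 2.4.6, and R 4.3.3 with DESeq2 1.42.0 and edgeR 4.0.16.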

Additional observations from a re-analysis of the deposited data

Results flagged for a closer look

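In 30 checks, each of 1 measure in 1 group of 10 or fewer cells, the highest or lowest cell was compared with its nearest neighbour. The same group was checked for several measures, and the smallest groups were left out. In 3 checks a cell stood apart from the rest of its group. Chance gives about 1 in 20 checks, and no cause was tested. All 3 are Calb1 cells of the warm-sensitive class. That class was looked at most often, since each gene named for warm-sensitive Calb1 cells was examined in it and in no other group. Those genes were chosen from these same cells, so the rate of 1 in 20 does not hold for them. Warm-sensitive cell 12 had 31.5% of its counts in Rn45s, the lowest of 10, with the next at 53.8%. Warm-sensitive cell 18 had a log2(CPM + 1) of Stub1 of 5.34, with the next highest at 1.79, and warm-sensitive cell 7 had one of Uqcrc2 of 4.92, with the next highest at 2.43. Stub1 and Uqcrc2 are thus each at 10 CPM or more in 1 of these 10 cells, and both were named as lower in warm-sensitive Calb1 cells.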

How the results depend on the processing

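The counts of genes at least 1 from the median gene depend on the processing. Against 230 higher and 160 lower genes in Calb1 cells, they were 420 and 407 with a pseudocount of 0.1 CPM, 70 and 12 with 10 CPM, 1691 and 13 without a limit on low genes, 373 and 484 with Calb1 at 1 count or more, 422 and 503 after thinning and 456 and 297 in summed counts. The lower count was 292 with totals without Rn45s, 284 with DESeq2 size factors and 306 without cells over 75% Rn45s. Chosen after seeing the data, firing cells only gave 446 and 527, silent cells only 587 and 572, and thinning with the unthinned Calb1 groups 427 and 367. The median gene differed by 1.07 to 1.17 with any 1 cell left out, but by 0.35 when adjusted for genes detected. With any 1 cell left out the counts were 212 to 255 and 137 to 175. For warm-sensitive Calb1 cells, against 930 and 767, they were 427 and 332 with a pseudocount of 10 CPM, and the lower count was 2344 without a limit on low genes, 1187 after thinning and 1430 in summed counts; leaving out 1 cell gave 875 to 971 and 720 to 804. The cause was not tested.

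Among the genes and list medians at least 1 from the median gene, those that turned in direction were, with Calb1 at 1 count or more, Sdf4 (-0.23), Gad1 (0.013), Gad2 (0.39), Gabbr1 (0.13) and the GABAergic median (0.19); after thinning Sdf4 (-0.34); in summed counts Ncald (-0.079); and among silent cells Srp14 (-0.46), Ncald (-0.41), Scn1a (0.68), Gad1 (0.57), Hspd1 (-0.78), Uqcrc1 (-0.40), C1qa (0.99), the GABAergic median (0.59) and the oligodendrocyte median (0.39). These are 10 of 52 such genes, and none of the genes named for warm-sensitive Calb1 cells turned. The naming rule had itself required equal signs within title letters, adjusted for genes and with any 1 cell left out. For the named genes of both comparisons the direction in those settings was thus fixed in advance. Of the 21 list medians under 1 in size, 20 changed sign in at least 1 setting besides those that leave out a cell, the exception being calcium/calmodulin kinase and phosphatase genes, and the signs of these 20 give no direction. The share of Calb1 cells was recomputed in some of these settings only. In those, the differences between firing and silent cells and between warm-sensitive and insensitive cells kept their direction. Others did not. Silent sensitive and warm-sensitive cells were at 30% and 47.6%, but at 100% and 81% with Calb1 at 1 count or more. Silent insensitive cells were at 57.1% and warm-sensitive ones at 53.8% without cells over 75% Rn45s. In the bands of genes detected given above, which are not among these settings, firing cells did not exceed silent ones in the middle band. Depth limits what can be seen of rare genes, since other cells had a median of 365120.5 counts outside Rn45s and Calb1 cells 635244. No paired analysis was possible because the labels give no replicate numbers that link cells across groups.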

Other observations

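Ptgds, which encodes a prostaglandin D synthase, was carried by nearly all cells whether or not they had Calb1: it was at 10 CPM or more in 49 of 54 Calb1 cells and 38 of 42 other cells. Its level was 0.948, 225 and 40810 CPM (lowest, median, highest) in Calb1 cells and 3.54, 238 and 58710 CPM in other cells, ranges that overlap almost entirely. Among the Calb1 cells it was in 10 of 10 warm-sensitive and 17 of 19 insensitive ones.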
